A study of Mus musculus with 2 samples.

Results

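The expression of 10 transcription factors of the somites and the paraxial mesoderm was examined by single-cell RNA sequencing of mouse embryos, in the tissue that holds the cardiac neural crest. The factors were chosen by name, as Pax1, Pax9, Meox1, Meox2, Tcf15, Uncx, Foxc1, Foxc2, Myf5 and Foxd1, and all 10 were found among the 18131 genes measured. The tissue reached from the middle of the otic placode to the back of somite 4 of E9.5 embryos of strain C57BL/6. It was processed as 1 WT library (Prdm6+/+; Wnt1-Cre2; ZsGreen1) and 1 KO library (Prdm6f/f; Wnt1-Cre2; ZsGreen1). Both genotypes carried Wnt1-Cre2, which drives Cre recombinase in the Wnt1 lineage of neural crest and dorsal neural tube, and ZsGreen1, a green reporter that Cre turns on. With a single library per genotype, no difference below has a replicate check.

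Somites are blocks of paraxial mesoderm that form in pairs beside the neural tube. The ventral part of each loosens into sclerotome, the source of vertebrae and ribs, and the dorsal part stays epithelial as the dermomyotome, from which skeletal muscle and dermis come. Paraxial mesoderm of the head does not segment and spreads as loose mesenchyme, where it mixes with neural crest cells. Pax1 and Pax9 are paired-box factors of the sclerotome that are also expressed in the endoderm of the pharyngeal pouches. Meox1, Meox2 and Uncx are homeodomain factors, Tcf15 and Myf5 are basic helix-loop-helix factors, and Foxc1, Foxc2 and Foxd1 are forkhead factors.

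There were 11958 WT cells and 9765 KO cells, with medians of 1597 and 1703 unique molecular identifiers (UMIs) per cell. The 2 libraries had 26 cell barcode sequences in common. The targeted gene, Prdm6, had 104 UMIs in WT and 59 in KO, a log2 ratio of KO over WT of −0.68 (−1.17 to −0.21). Reads at the 3′ end may not tell a transcript of the deleted allele from an intact one, which was not tested. Levels are UMIs per 1000000 UMIs (CPM) of a library or of a cell class in that library. Ratios are log2 of KO over WT. Bounds in parentheses are exact 95% intervals that cover counting error only and leave out the spread between embryos. Cell classes are gates. A cell entered a gate when it held at least 2 marker genes of that class above their rate in the library, and more than of any other class. The markers did not include any of the 10 factors. Of 20 gates, the 16 with at least 50 cells over both libraries are described, and 7991 WT and 6987 KO cells fell in no gate. The dermomyotome and myogenic gate held 103 WT and 73 KO cells, and head mesenchyme held 285 and 234. The sclerotome and somite gate, at 14 and 5 cells, was too small to describe, and its defining marker Nkx3-2 was not analysed here.

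Over all cells, 2 of the 10 factors were past 1.5-fold and both were lower in KO. They were Myf5, with a ratio of −1.02, and Uncx, with a ratio of −0.62. No factor was past 1.5-fold in the other direction. Of the 11744 genes with at least 100 UMIs over both libraries, 2.75% were at least 1.5-fold lower in KO and 0.613% were at least 1.5-fold higher. The median ratio of the 10 factors was −0.12, beside −0.06 over all genes tested. The ratio of Myf5 was the 50th lowest of those tested, and that of Uncx the 266th lowest. The KO level of Uncx (6.02 CPM) was no higher than in KO erythroid cells (6.74 CPM, 1.84 to 17.3, on 4 UMIs). The KO side of its ratio is therefore not told apart from background. The other 8 factors lay between −0.30 for Pax1 and 0.14 for Foxc1.

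**Figure D1:**
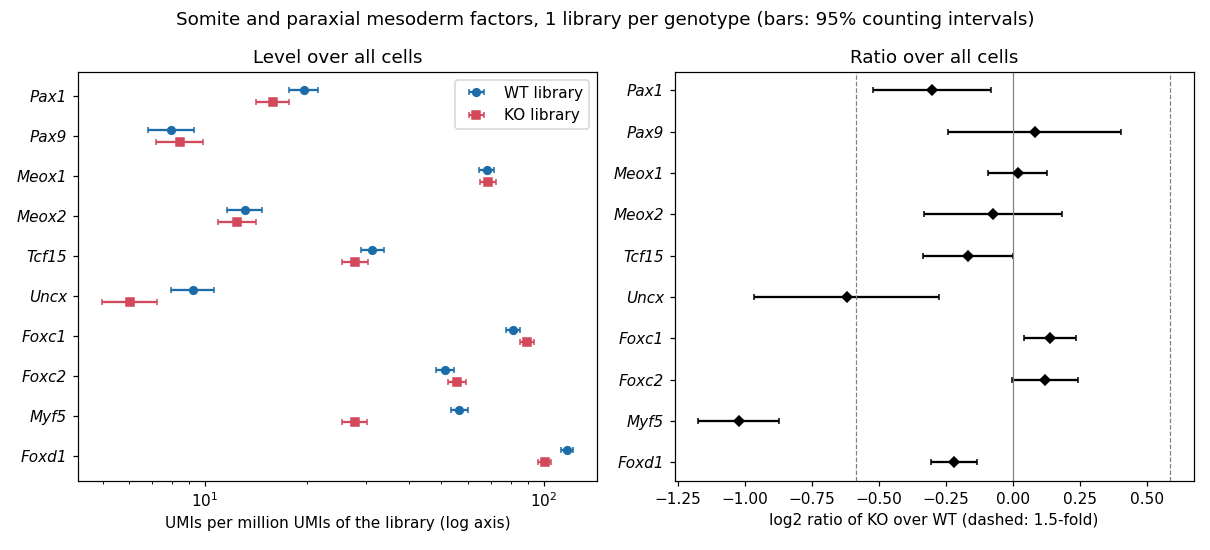
Level of each factor in the WT and KO libraries in UMIs per 1000000 UMIs on a log axis (left) and the log2 ratio of KO over WT (right), with bars for 95% counting intervals and 1 library per genotype. The 2 libraries lie farthest apart at Myf5 (56.3 and 27.7 CPM) and Uncx (9.24 and 6.02 CPM), and levels are to be compared within a gene only.

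Droplets also take up free RNA, so each factor was set beside the erythroid gate, whose cells should lack it. Erythroid cells were deeper than the library, with medians of 1947 UMIs in WT and 2359 in KO. To allow for depth, each cell was also thinned to 1000 UMIs, called the same depth below. A UMI of Foxd1 was then found in 10.2% of WT cells and 9.27% of KO cells, against 2.62% and 3.32% of erythroid cells. Foxc1, Foxc2, Tcf15, Myf5 and Meox1 also stood above the erythroid share in both libraries, Meox1 least so in KO (6.82% against 4.56%). Pax9 did not: it was found in 0.849% of thinned WT cells and 1.22% of erythroid cells, and in 0.809% and 0.830% in KO. Uncx stood above the erythroid share in WT (0.774% against 0.175%) and not in KO (0.581% against 1.24%). The same held for Meox2 (1.36% against 0.699% in WT, 1.40% against 1.66% in KO). Pax1 was found in 1.67% against 0.699% in WT and in 1.74% against 1.66% in KO. Over all cells the shares of Pax9 in both libraries, and those of Pax1, Uncx and Meox2 in KO, are therefore not told apart from background. These genes are described by gate and by the genes found with them. The erythroid shares of these 4 genes rest on few cells: in each library there were only 3 to 11 UMIs even before thinning.

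Pax1 (chromosome 2, 147361925 to 147393295, GRCm38), which is needed for ventral vertebral structures, had 407 UMIs in 340 WT cells and 301 UMIs in 274 KO cells. Its level was 19.6 CPM (17.7 to 21.6) in WT and 15.9 CPM (14.1 to 17.8) in KO, a ratio of −0.30 (−0.52 to −0.08). When cells were thinned to the same depth the ratio was −0.01. By gate, Pax1 was at 40.8 CPM in WT head mesenchyme and 25.1 CPM in KO head mesenchyme, with 24 and 14 UMIs. In the epithelial gate, whose markers are shared by ectoderm, placodes and endoderm, it was at 31.3 CPM in WT and 20.7 CPM in KO. In pharyngeal and foregut endoderm it was at 21.7 and 47.4 CPM, on 4 UMIs in each library. The intervals of these 3 gates overlap in each library, so their order is not settled at this depth. In migrating neural crest Pax1 was at 5.58 and 4.17 CPM, no higher than in erythroid cells (8.15 and 10.1 CPM).

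Pax9 (chromosome 12, 56691767 to 56712822), the paralogue of Pax1, had 166 UMIs in WT and 160 in KO. Its level was 7.99 CPM (6.82 to 9.30) and 8.45 CPM (7.19 to 9.86), a ratio of 0.08 (−0.24 to 0.40). The epithelial gate was its highest in both libraries, at 25.0 CPM in WT and 16.1 CPM in KO, on 12 and 7 UMIs. Its intervals there (12.9 to 43.7 in WT, 6.46 to 33.1 in KO) overlap those of the next gate and of erythroid cells (7.34 and 6.74 CPM) in both libraries. In cells with a UMI of Pax9, the epithelial markers (Epcam, Cdh1 and other genes of tight epithelia) summed to 641 CPM in WT, against 312 CPM in cells without one. The values in KO were 493 and 282 CPM. Markers of pharyngeal and foregut endoderm, such as Foxe1 and Nkx2-1, summed to 214 against 98.0 CPM in WT and to 142 against 77.2 CPM in KO. Markers of dermomyotome and muscle went the other way, at 87.3 against 135 CPM in WT and 87.0 against 119 CPM in KO.

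The genes most like Pax9 were those most raised in cells with a UMI of it over cells without one. This ratio of CPM, with 10 CPM added to each side, was taken in both libraries and ranked by the smaller of the 2 values, here over 5324 genes. Foxe1, a forkhead factor of the thyroid and pharyngeal endoderm, came first (3.81), followed by Pyy, Vgll2, Cldn4 and Ripply3, the last a repressor of the pharyngeal apparatus. Foxe1 had a UMI in 11 WT and 7 KO Pax9 cells, and in 3 and 1 after thinning. Tbx1, a factor of pouch endoderm and pharyngeal mesoderm, had a UMI in 14.7% of Pax9 cells and 4.45% of other cells in WT. In KO it had one in 16.8% and 5.16%. Thinned, these shares were 3.33% and 2.84% in WT, on 3 cells, and 6.41% and 2.79% in KO, on 5 cells. For Pax1 the list over 7070 genes was AI646519, Vgll2, Fgf3, Uncx and Edn1, so that Vgll2, a cofactor of TEAD proteins, was shared by both paralogues.

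In WT, but not beyond the intervals in KO, cells with Pax1 and cells with Pax9 differed in their epithelial and mesenchymal genes. A UMI of Epcam, Cdh1, Cldn6 or Cldn7 with none of Pdgfra, Twist1, Prrx1 or Stra6 was found in 20.5% (14.5 to 27.7) of WT Pax9 cells and 10.0% (7.03 to 13.7) of WT Pax1 cells. The opposite, mesenchymal genes with no epithelial gene, was found in 39.1% (31.4 to 47.2) of Pax9 cells and 53.5% (48.1 to 58.9) of Pax1 cells. In WT cells without Pax9 the epithelial and mesenchymal shares were 8.65% and 39.2%, and in those without Pax1 8.77% and 38.8%. The mesenchymal share of Pax9 cells and the epithelial share of Pax1 cells thus lay near those of cells without the gene. These shares were not taken at the same depth. In KO the epithelial shares were 16.1% and 10.9%, and the mesenchymal shares were 37.6% and 45.6%, with intervals that overlap. The paralogues were seen together in 14 WT cells, 8.97% of Pax9 cells beside 2.76% of cells without Pax9, and in 15 KO cells. At the same depth this was 3 WT cells (3.33% beside 1.66%) and 6 KO cells (7.69% beside 1.69%).

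Meox1 (chromosome 11, 101877510 to 101894374), which acts in somite patterning and in the joints between skull and neck, had 1413 UMIs in 1211 WT cells and 1303 UMIs in 1154 KO cells. Its level was 68.0 CPM (64.5 to 71.6) in WT and 68.8 CPM (65.1 to 72.6) in KO, a ratio of 0.02 (−0.09 to 0.13). The interval lies within 1.5-fold. The dermomyotome and myogenic gate led in both libraries, at 303 CPM (237 to 382) in WT and 264 CPM (194 to 353) in KO. Head mesenchyme followed at 96.8 and 115 CPM, and the intervals of these 2 gates did not overlap in either library. In migrating neural crest Meox1 was at 55.8 CPM (37.7 to 79.7) in WT and 95.9 CPM (70.2 to 128) in KO, on 30 and 46 UMIs, a ratio of 0.78 (0.09 to 1.49). In erythroid cells it was at 23.6 CPM in WT and 45.5 CPM in KO, a ratio of 0.94 (0.13 to 1.75). The part of free RNA in the value of the neural crest gate was not tested.

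Meox2 (chromosome 12, 37108540 to 37179534), a paralogue needed for limb muscle, had 273 UMIs in WT and 236 in KO. Its level was 13.1 CPM (11.6 to 14.8) and 12.5 CPM (10.9 to 14.2), a ratio of −0.08 (−0.33 to 0.18). Its highest value was in the dermomyotome and myogenic gate, at 59.7 CPM (32.7 to 100) in WT and 34.5 CPM (12.7 to 75.1) in KO, on 14 and 6 UMIs. The interval there overlaps that of the next gate in both libraries, which in KO is head mesenchyme (28.6 CPM on 16 UMIs). In KO it also overlaps that of erythroid cells (8.42 CPM, 2.73 to 19.7). Its most like genes were other members of the 10, in the order Pax1, Tcf15, Uncx, Myf5 and Meox1. The list of Meox1 was Myf5, Tcf15, Dmrt2, Stra6 and Uncx. Dmrt2 is a dermomyotome factor that acts on Myf5, and Stra6 is a receptor for retinol-binding protein. Both Meox genes were found in 55 WT cells and 45 KO cells, which is 20.9% of WT Meox2 cells beside 9.88% of WT cells without Meox2.

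Tcf15, also called paraxis, keeps somites epithelial. It lies at chromosome 2, 152143561 to 152149097. It had 650 UMIs in 549 WT cells and 527 UMIs in 438 KO cells, at 31.3 CPM (28.9 to 33.8) and 27.8 CPM (25.5 to 30.3), a ratio of −0.17 with an interval from −0.34 to just under 0. In the dermomyotome and myogenic gate it was at 290 CPM (225 to 368) in WT and 305 CPM (228 to 399) in KO, well clear of the next gate in both. The ratio there was 0.07 (−0.48 to 0.61), but with 3 markers in place of 2 it was −1.23. Head mesenchyme was at 39.1 and 30.4 CPM and endothelium at 33.7 and 24.9 CPM, against 13.9 and 8.42 CPM in erythroid cells. The intervals of both gates lie above the erythroid one in WT and overlap it in KO. Endothelial markers summed to 477 CPM in WT Tcf15 cells and 373 CPM in cells without it. In KO they summed to 433 and 339 CPM. Pax3, a factor of dermomyotome and neural crest, was found in 23.3% of WT Tcf15 cells and 7.84% of other cells, and in 19.9% and 8.74% in KO. With thinning these were 13.4% and 5.17% in WT, and 8.24% and 5.19% in KO. The genes most like Tcf15 over 8486 genes were Myf5 (5.24), Dmrt2 (3.43), Stra6 (3.15), Cp and Pax3.

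Uncx (chromosome 5, 139543494 to 139548179) is expressed in the caudal part of each somite and is needed for pedicles and proximal ribs. It had 192 UMIs in 152 WT cells and 114 UMIs in 104 KO cells, at 9.24 CPM (7.98 to 10.6) and 6.02 CPM (4.97 to 7.23). The KO level over all cells was not told apart from that of erythroid cells, which rests on 4 UMIs. The ratio was −0.62 (−0.97 to −0.28), which is 1.53-fold lower in KO and just past the 1.5-fold line. It fell short of that line, at −0.56, with the libraries scaled by the median of ratios, and was −0.51 with cells thinned to the same depth. Counted as cells with a UMI it was −0.26. Cells with 2 or more UMIs numbered 32 in WT and 9 in KO, and held 37.5% and 16.7% of its UMIs. In the dermomyotome and myogenic gate, Uncx had 17 UMIs in 10 WT cells and 3 UMIs in 2 KO cells, a ratio of −2.07 (−4.49 to −0.28). It rests on 12 cells in all. After thinning, Uncx was found in 5.05% of the WT cells of this gate and in none of the KO cells, and a ratio against the floor of 3 UMIs that a count of 0 allows was −0.28, an upper bound.

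In the neuron gate Uncx was at 30.6 CPM (14.7 to 56.2) in WT and 23.3 CPM (10.1 to 45.9) in KO, on 10 UMIs in 5 cells and 8 UMIs in 7 cells. Erythroid cells were at 2.45 and 6.74 CPM, with an interval that overlaps the neuronal one in KO and not in WT. Neuronal markers summed to 314 CPM in WT Uncx cells and 197 CPM in cells without it, and to 585 and 204 CPM in KO. Dermomyotome and myogenic markers summed to 304 and 131 CPM in WT, and to 218 and 117 CPM in KO. The genes most like Uncx over 4300 genes were Myf5, Aldh1a2, Nhlh1, Pax1 and Meox1. Aldh1a2, the retinoic acid synthase of the somites, had a UMI in 23.7% (at the same depth 12.2%) of WT Uncx cells and 6.44% (4.13%) of other cells. In KO these shares were 19.2% (10.7%) and 6.33% (3.79%). Nhlh1, a factor of newborn neurons, had a UMI in 5 Uncx cells in each library. Tbx18, which marks the rostral part of the somite and keeps it distinct from the caudal part, had a UMI in 2 of 152 WT Uncx cells, or 1.32%, beside 4.36% of other cells. In KO it had one in 4 of 104 Uncx cells (3.85%), beside 3.64% of other cells. Thinned, the shares were 1.22% and 2.79% in WT, on 1 cell, and 5.36% and 2.01% in KO, on 3 cells, so the libraries went opposite ways on very few cells.

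The 250 bases before the RefSeq start of Uncx and of Myf5 are printed because these were the 2 factors past 1.5-fold. They are on GRCm38.p6 at chr5:139543648-139543897 on the plus strand and chr10:107486135-107486384 on the minus strand. The GENCODE gene of Uncx starts earlier, at 139543494, so the Uncx window lies inside it. Windows were found for 7 of the 10 factors, and there was none for Meox1, Tcf15 and Foxc2. Both strands were searched for CANNTG, the E-box of basic helix-loop-helix factors, for GTAAACA, a forkhead core, for TAATTA, a homeodomain core, and for TATAAA. Capitals mark each match.
Uncx: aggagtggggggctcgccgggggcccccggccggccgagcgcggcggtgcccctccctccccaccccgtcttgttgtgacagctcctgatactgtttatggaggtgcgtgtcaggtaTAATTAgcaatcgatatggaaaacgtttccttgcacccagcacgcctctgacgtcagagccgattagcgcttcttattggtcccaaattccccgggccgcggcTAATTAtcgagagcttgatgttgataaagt
Myf5: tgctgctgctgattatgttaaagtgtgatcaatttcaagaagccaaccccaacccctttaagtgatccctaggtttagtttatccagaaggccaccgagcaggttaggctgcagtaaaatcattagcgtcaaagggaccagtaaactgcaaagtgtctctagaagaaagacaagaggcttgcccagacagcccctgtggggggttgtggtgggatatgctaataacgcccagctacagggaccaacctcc

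The Uncx window held TAATTA at positions −133 and −30, counted from the RefSeq start, and no match of the other 3 motifs. Of 32851 promoter windows of this length, 4.84% held TAATTA. None of the 4 sets of letters was in the Myf5 window. CANNTG was in 66.2% of all windows, and 1 match each was in those of Pax9, Meox2 and Foxd1. The Meox2 window also held TATAAA once, as 12.4% of windows did, at position −29. GTAAACA was in none of the 7 and in 3.17% of all windows. The GC content was 58.4% for Uncx and 48.8% for Myf5. A match is given as letters only.

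Foxc1 and Foxc2 are related forkhead factors that act together in somite formation, in the head mesenchyme and in blood vessels. Foxc1 (chromosome 13, 31806633 to 31812476) had 1694 UMIs in WT and 1698 in KO, at 81.5 CPM (77.7 to 85.5) and 89.7 CPM (85.5 to 94.0), a ratio of 0.14 (0.04 to 0.23). Foxc2 (chromosome 8, 121116171 to 121118895) had 1062 UMIs in WT and 1051 in KO, at 51.1 CPM (48.1 to 54.3) and 55.5 CPM (52.2 to 59.0), a ratio of 0.12 (−0.01 to 0.24). Both were slightly higher in KO and neither was near 1.5-fold. Foxc1 was highest in head mesenchyme, at 188 CPM (155 to 227) in WT and 166 CPM (134 to 204) in KO. The dermomyotome and myogenic gate followed at 119 and 126 CPM, with intervals that overlap those of head mesenchyme.

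Foxc2 was instead highest in the endothelial gate, at 119 CPM (100 to 141) in WT and 111 CPM (91.6 to 132) in KO, on 138 and 120 UMIs. Head mesenchyme was next at 110 and 100 CPM, and these 2 gates do not differ beyond their intervals. The genes most like Foxc2 over 10044 genes were Cdh5, the cadherin of endothelial junctions (2.48), Gngt2, Plvap, Foxd1 and Tnfaip2. Cdh5 had a UMI in 12.8% of WT Foxc2 cells and 5.19% of other cells, and in 11.9% and 4.80% in KO. In thinned cells the shares were 8.90% and 3.89% in WT, and 5.14% and 3.28% in KO. Foxc1 also had UMIs in endothelium, at 73.5 and 93.0 CPM, and its cells held Cdh5 in 6.63% against 5.66% of other cells in WT and in 6.62% against 5.26% in KO. Thinning turned this order, to 3.49% against 4.19% in WT and 2.66% against 3.45% in KO. The list of Foxc1 over 10887 genes was Foxd1, Stra6, S1pr3, Myf5 and Pdgfrb, which encodes a receptor of mesenchyme and pericytes. The 2 genes had a UMI in the same cell 198 times in WT and 216 times in KO, in 21.2% and 23.8% of Foxc2 cells.

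In pharyngeal mesoderm Foxc2 had 3 UMIs in WT (31.0 CPM, 6.39 to 90.5) and 13 in KO (92.3 CPM, 49.1 to 158). The ratio of 1.57 (−0.29 to 4.03) includes no difference. Foxc1 was at 62.0 and 71.0 CPM there. In migrating neural crest the 2 genes were at 44.7 and 13.0 CPM in WT and at 75.0 and 22.9 CPM in KO, Foxc1 first. Erythroid cells were at 35.9 and 18.7 CPM in WT and at 33.7 and 15.2 CPM in KO, so in WT neural crest neither gene stood above background beyond its interval. The ratios were 0.75 (−0.04 to 1.56) for Foxc1 and 0.82 (−0.68 to 2.42) for Foxc2, and both intervals include no difference.

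Foxd1 (chromosome 13, 98354242 to 98359305), known from kidney stroma and the ventral retina and also present in the somites, had 2443 UMIs in 1711 WT cells and 1911 UMIs in 1443 KO cells. Its level was 118 CPM (113 to 122) in WT and 101 CPM (96.4 to 106) in KO, a ratio of −0.22 (−0.31 to −0.13). Counted as cells with a UMI the direction turned, to 0.047, with KO cells deeper than WT cells. With cells thinned to the same depth, 10.2% of WT and 9.27% of KO cells held a UMI, and the ratio was −0.21. Head mesenchyme was its highest gate, at 260 CPM (220 to 304) in WT and 215 CPM (178 to 257) in KO. The dermomyotome and myogenic gate followed at 213 and 190 CPM, and the 2 do not differ beyond their intervals. The ratio within head mesenchyme was −0.27 (−0.63 to 0.08), and with 3 markers in place of 2 it was −0.66. Splanchnic mesoderm (107 and 93.6 CPM) and neurons (107 and 84.5 CPM) came next, against 28.5 and 37.1 CPM in erythroid cells. Its most like genes over 10888 genes were Tcf15, Col3a1, Heyl, Foxc2 and S1pr3. Col3a1 encodes a fibrillar collagen and Heyl a target of Notch signalling. Pdgfra, a growth factor receptor of mesenchyme, had a UMI in 30.6% of WT Foxd1 cells and 14.9% of others, and in 25.0% and 14.1% in KO. Thinned, they were 20.5% and 10.2% in WT, and 14.8% and 8.87% in KO.

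**Figure D2:**
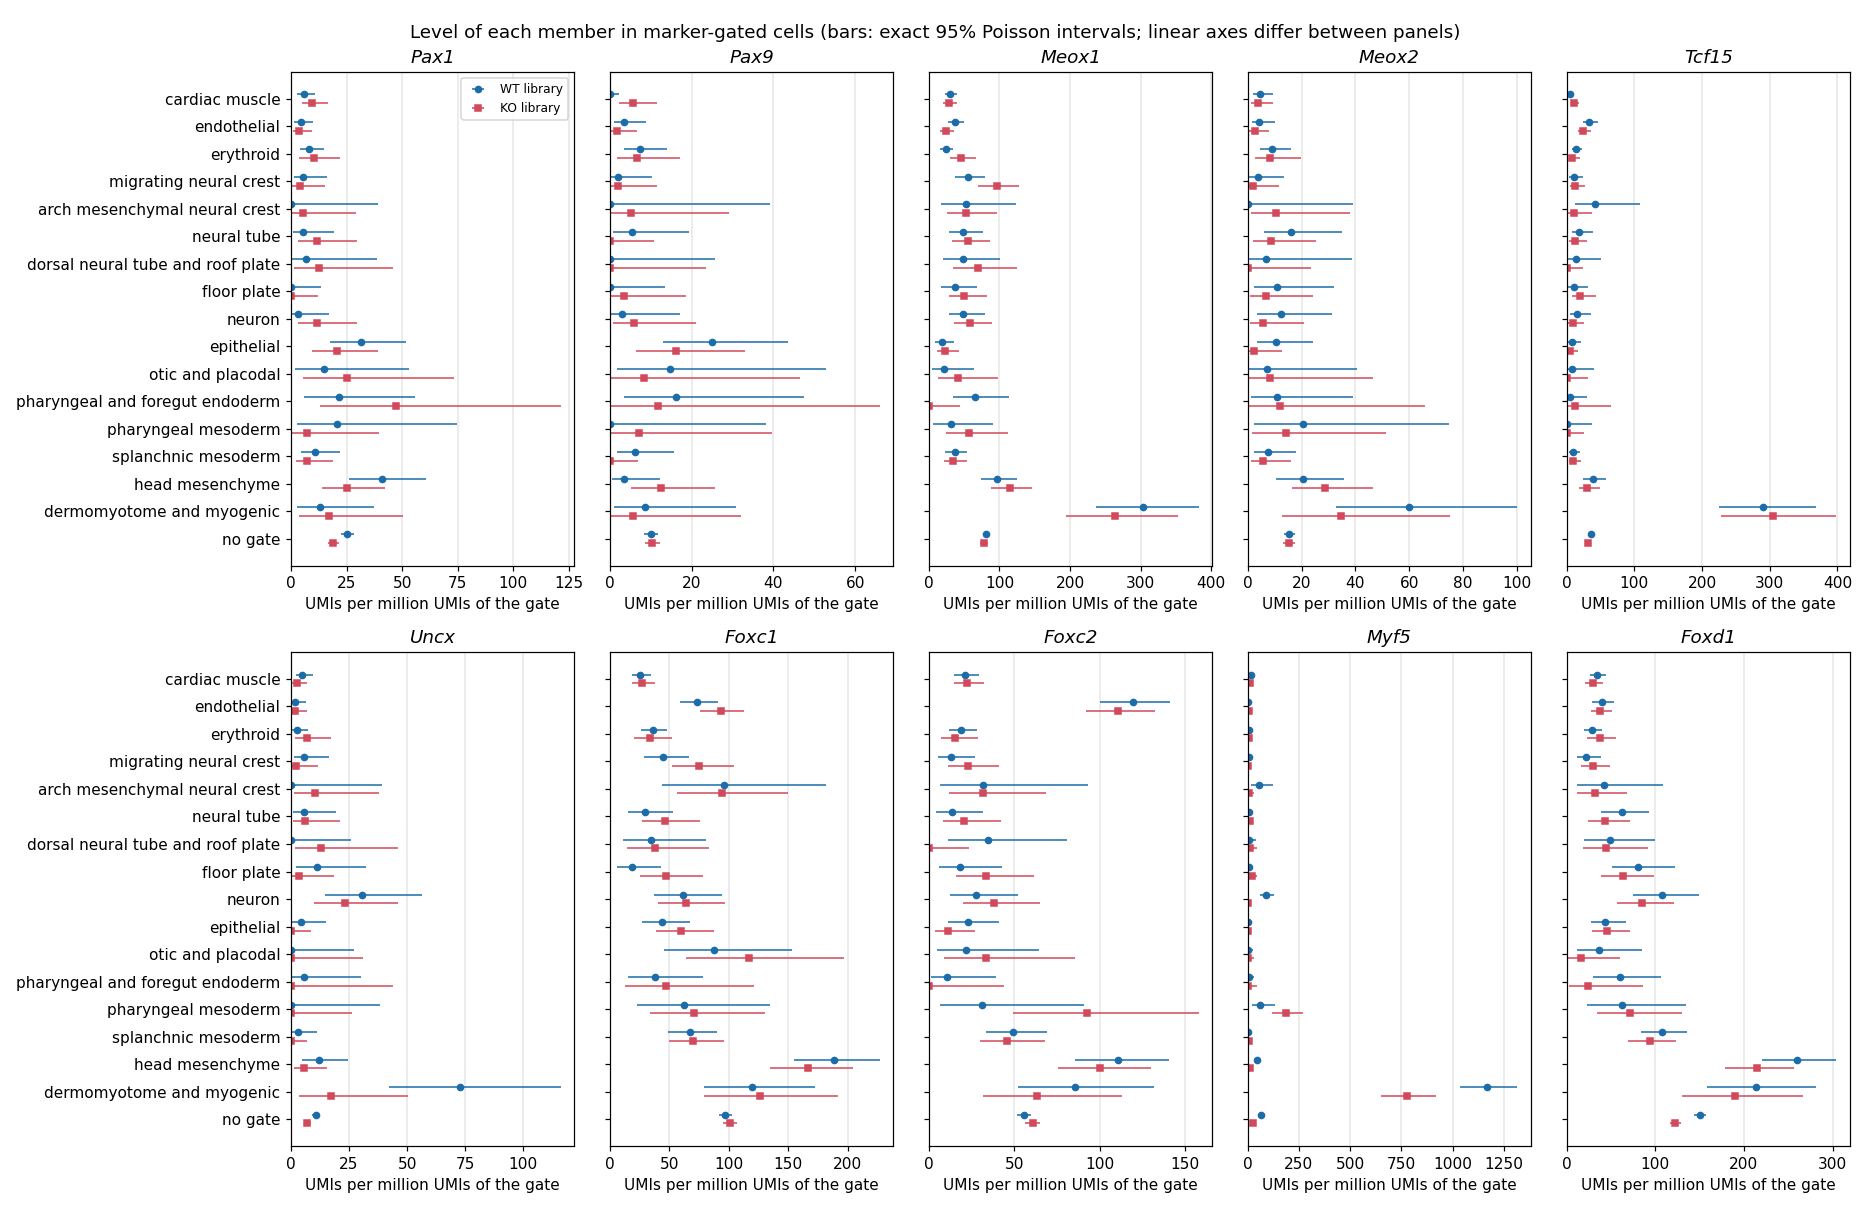
Level of each factor in 16 marker gates and in cells of no gate, in UMIs per 1000000 UMIs of the gate on linear axes that differ between panels, for the WT and KO libraries with exact 95% Poisson intervals. Myf5, Tcf15 and Meox1 stand clear of all other gates in the dermomyotome and myogenic gate, Foxc1 and Foxd1 lead in head mesenchyme, and Foxc2 is as high in endothelium (119 CPM in WT) as in head mesenchyme (110 CPM in WT).

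Myf5 (chromosome 10, 107482908 to 107486134, minus strand) is the first of the myogenic determination factors to be expressed in somites, and is also expressed in muscle progenitors of the pharyngeal arches. It had 1171 UMIs in 372 WT cells and 525 UMIs in 229 KO cells. The level was 56.3 CPM (53.2 to 59.7) in WT and 27.7 CPM (25.4 to 30.2) in KO, a ratio of −1.02 (−1.17 to −0.87), or 2.03-fold lower in KO. UMIs of Myf5 were concentrated in few cells, so these intervals are narrower than the cells warrant. The highest count in a cell was 44 in WT and 23 in KO, and the mean over positive cells was 3.15 and 2.29 UMIs. Counted as cells, Myf5 was found in 3.11% (2.81 to 3.44) of WT cells and 2.35% (2.05 to 2.66) of KO cells, a ratio of −0.41. At the same depth these shares were 2.46% and 1.51%.

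The KO share was lower at each number of UMIs asked of a cell. At least 2 UMIs were held by 191 WT cells (1.60%) and 84 KO cells (0.860%), and at least 3 by 128 (1.07%) and 51 (0.522%). At least 5 were held by 63 WT cells (0.527%, 0.405 to 0.674) and 29 KO cells (0.297%, 0.199 to 0.426). At least 10 were held by 27 WT cells (0.226%, 0.149 to 0.328) and 8 KO cells (0.0819%, 0.0354 to 0.161). Those 27 cells held 34.5% of all WT UMIs of Myf5, and the 8 cells held 21.0% of those in KO. At 20 or more there were 4 WT cells and 1 KO cell. The intervals of the libraries overlap at 5, 10 and 20 or more UMIs, and do not at 1, 2 and 3 or more.

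**Figure D3:**
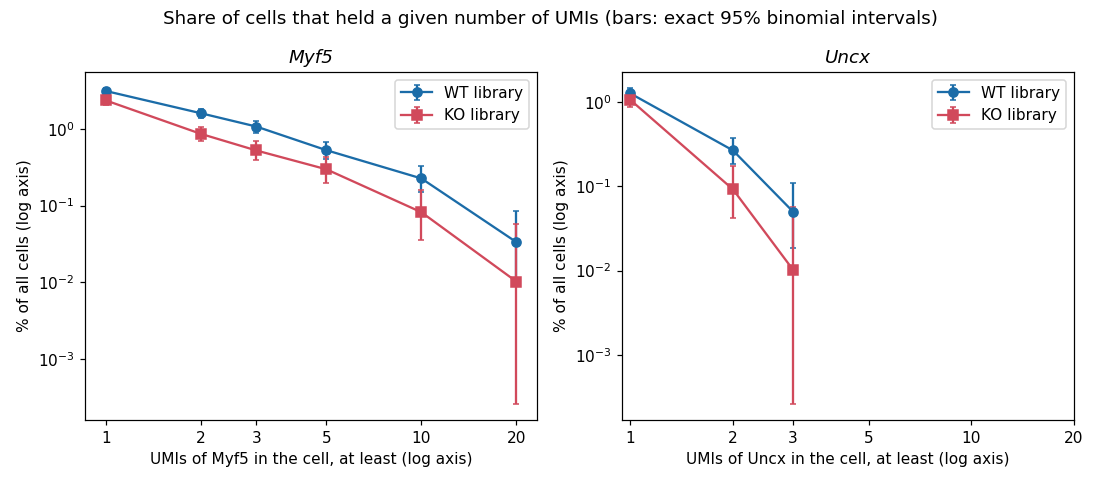
Share of all cells, in percent on a log axis, that held at least the number of UMIs on the log x axis, for Myf5 (left) and Uncx (right) in the WT and KO libraries, with exact 95% binomial intervals. The KO points lie below the WT points at every number with cells, with 191 WT and 84 KO cells at 2 or more UMIs of Myf5 and 32 WT and 9 KO cells at 2 or more UMIs of Uncx.

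By gate, Myf5 was at 1169 CPM (1035 to 1316) in WT and 776 CPM (651 to 919) in KO in the dermomyotome and myogenic gate, a ratio of −0.59 (−0.90 to −0.29). It had 274 UMIs in 53 of 103 WT cells and 135 UMIs in 31 of 73 KO cells. With 3 markers per cell in place of 2 the ratio was −0.01. With gates extended by expression profile it was −0.59, and with cells thinned to the same depth −0.48. The lower level in this gate therefore depends on how strictly the gate is drawn. This gate held 23.4% of all Myf5 UMIs in WT and 25.7% in KO. Cells of no gate held 66.4% and 61.0%, at 62.3 CPM (58.0 to 66.8) and 26.6 CPM (23.8 to 29.7), a ratio of −1.23 (−1.42 to −1.04). In head mesenchyme there were 26 UMIs in 11 WT cells and 6 UMIs in 5 KO cells. In the neuron gate there were 29 UMIs in 8 WT cells and 0 in KO, which allows up to 3, and 3 of the WT cells, with 10, 8 and 6 UMIs, held most of them.

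Pharyngeal mesoderm was the 1 gate whose interval for Myf5 lay wholly above 0. It had 6 UMIs in 4 of 52 WT cells (62.0 CPM, 22.7 to 135) and 26 UMIs in 14 of 62 KO cells (185 CPM, 121 to 270), a ratio of 1.57 (0.26 to 3.15) over 18 cells. Floor plate had 1 UMI in WT and 6 in KO, with an interval that includes no difference. Markers of pharyngeal mesoderm, such as Tbx1, Tcf21 and Lhx2, summed to 82.9 CPM in WT Myf5 cells against 114 CPM in cells without it, and to 194 against 103 CPM in KO. Tbx1 had a UMI in 5.11% of WT Myf5 cells and 4.57% of other cells, and in 11.4% and 5.19% in KO. In thinned cells these were 2.68% and 2.84% in WT, on 7 cells, and 6.16% and 2.77% in KO, on 9 cells. Dermomyotome and myogenic markers summed to 783 CPM in WT Myf5 cells and 109 CPM in other cells, and to 566 and 106 CPM in KO.

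The genes most like Myf5 over 7057 genes were Myog (9.26), the differentiation factor that follows it, Myh3 (8.02), the embryonic myosin heavy chain, Tcf15 (5.66), Ncam1 and Cdkn1a, an inhibitor of the cell cycle. A UMI of Myog was found in 14.0% of WT Myf5 cells and 0.423% of other cells, and in 9.61% and 0.461% in KO. Pax3 was found in 33.1% and 7.76% in WT, and in 29.7% and 8.75% in KO. Myf5 cells were chosen by a factor that itself differs: 51.3% of them held 2 or more of its UMIs in WT and 36.7% in KO. What this does to the ratios within them was not tested. Myog lay in 52 WT and 22 KO Myf5 cells, so counting intervals here are narrower than the cells warrant. Within Myf5 cells, Myog was at 153 CPM in WT and 106 CPM in KO, a ratio of −0.53 (−1.02 to −0.06). Mylpf, a myosin light chain of skeletal muscle, was at 180 and 79.3 CPM, a ratio of −1.18 (−1.72 to −0.68). Cdkn1a was at 170 and 113 CPM (−0.58, −1.05 to −0.13). Pax3 was at 264 and 213 CPM and Myh3 at 98.7 and 85.0 CPM, and their intervals include no difference. Of the genes given next for the dermomyotome and myogenic gate, all but Cdkn1a are among its markers. Its cells were thus chosen by the genes compared, and the effect of this on the ratios was not tested. In this gate, Myog had a ratio of −0.70 (−1.35 to −0.08) and Pax3 one of −0.42 (−0.81 to −0.04). Cdh15, a cadherin of muscle precursors, was at −1.35 (−2.81 to −0.09) on 24 WT and 7 KO UMIs. Sim1, a factor of the lateral dermomyotome, went the other way, with 5 UMIs in WT and 13 in KO and a ratio of 1.81 (0.23 to 3.65). Mylpf was at −0.35 (−1.07 to 0.35) and Cdkn1a at −0.26 (−0.93 to 0.38) there. Pax7 was at 115 CPM in both libraries and Dmrt2 at 179 and 172 CPM. The intervals of these 4 genes include no difference.

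The gates address whether a lower level over all cells came with fewer cells of a class or with a lower level within it. The 2 somite gates held 117 WT cells, 0.978% (0.810 to 1.17) of the library, and 78 KO cells, 0.799% (0.632 to 0.996), and the intervals overlap. Within the dermomyotome and myogenic gate, 3 factors (Meox1, Tcf15 and Myf5) had at least 100 UMIs. Myf5 was just past 1.5-fold lower (−0.59) and none was higher, where 2.99% of the 768 genes tested were lower and 4.56% were higher. With cells thinned to the same depth Myf5 was at −0.48 there, short of 1.5-fold. Within head mesenchyme, Meox1, Foxc1, Foxc2 and Foxd1 had at least 100 UMIs and none was past 1.5-fold, where 2.81% of 2531 genes were lower and 2.29% were higher. Because between 65.2% and 77.6% of the UMIs of each factor other than Myf5 lay in cells of no gate, the gates describe a minority of the cells that hold these transcripts.

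At least 1 of the 10 factors was found in 4743 WT cells (39.7%) and 4425 KO cells (45.3%), and at least 2 in 1543 (12.9%) and 1376 (14.1%). At the same depth at least 2 were found in 7.44% of WT cells and 6.34% of KO cells, so the order of the libraries turned. The highest number in 1 cell was 7 in both. Cells with 4 or more factors numbered 212 in WT (1.77%) and 112 in KO (1.15%). At the same depth there were 32 (0.302%) and 20 (0.207%).

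Of the 45 pairs, 42 had a ratio above 1 in both libraries, where the ratio is the share of cells with the second factor among cells with the first over that among cells without it. At the same depth 36 of 45 pairs did so. Cells with a UMI of a factor were deeper than the rest, with medians between 1755 and 2298 UMIs, and depth raises this ratio. The share of other gene pairs above 1 was not computed, so these counts are not read as particular to the 10 factors. The strongest pair in WT was Tcf15 and Myf5: 118 cells held both, 21.5% of Tcf15 cells beside 2.23% of cells without Tcf15, a ratio of 9.65. In KO 57 cells held both and the ratio was 7.06. Thinning gave ratios of 7.55 and 5.18. Tcf15 and Uncx came next in WT, with 43 cells and a ratio of 8.20, and had 13 cells and a ratio of 3.04 in KO. After thinning, 10 WT cells held this pair, a ratio of 4.90, and 0 of 255 Tcf15 cells in KO did, which allows up to 1.44%. For Pax9 and Myf5 the ratio was 0.62 in WT, on 3 cells, and 1.15 in KO, on 4 cells, and after thinning 2 WT cells and 0 KO cells were left. Foxd1 was found in 27.8% of WT Foxc1 cells and 28.7% of WT Foxc2 cells, ratios of 2.24 and 2.20. In KO these were 25.1% and 25.5%, ratios of 1.93 and 1.86.

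**Figure D4:**
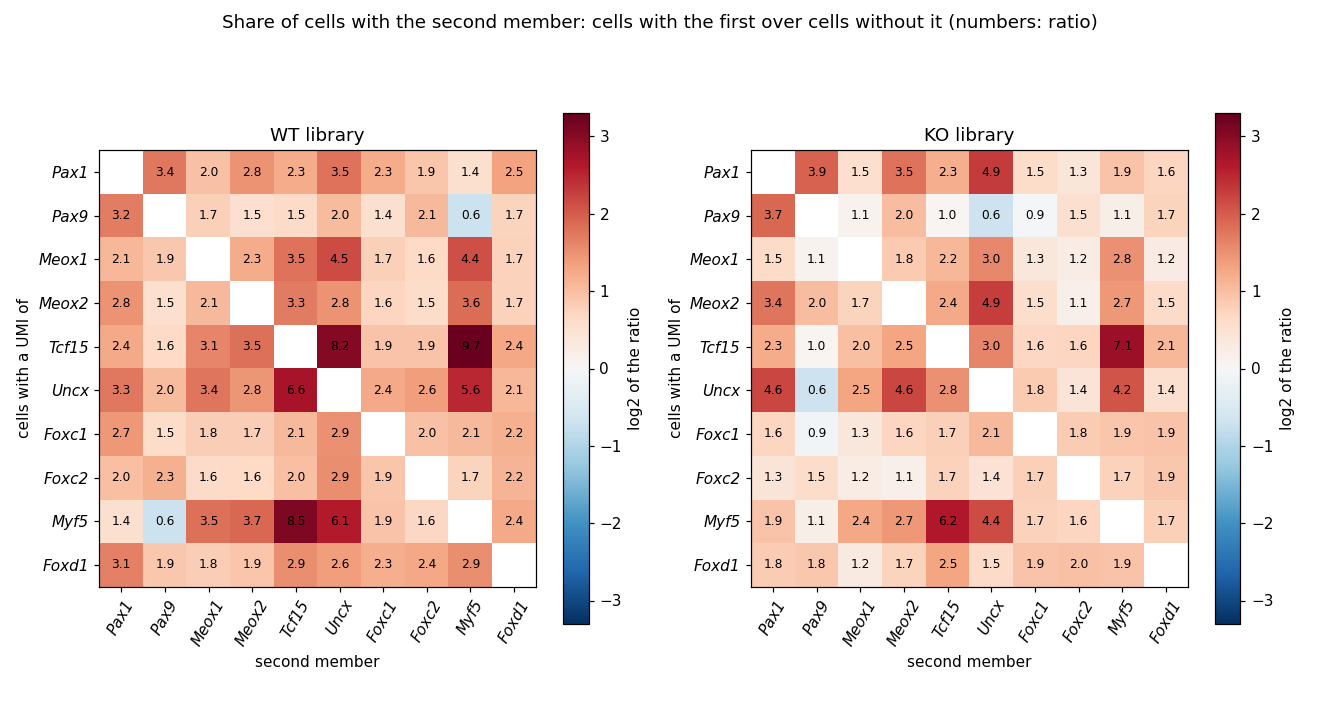
Ratio of the share of cells with the second factor (columns) among cells with the first (rows) over that among cells without the first, in all WT and KO cells, coloured by its log2. Tcf15, Myf5 and Uncx form the darkest block in WT, with 9.65 for Tcf15 and Myf5. Pax9 and Myf5 are at 0.62 in WT, on 3 cells, and at 1.15 in KO, on 4 cells.

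Summed markers of 21 classes gave a profile of the cells that hold each factor. Dermomyotome and myogenic markers were highest relative to other cells for Myf5 (log2 2.73 in WT and 2.32 in KO, with 10 CPM added), Tcf15 (1.50 and 1.20), Uncx (1.15 and 0.84), Meox2 (1.20 and 0.36) and Meox1 (0.92 and 0.46). Head mesenchyme markers were higher for every factor in both libraries, from 0.06 for Pax9 in WT to 0.89 for Uncx in WT. Endothelial markers were higher for Foxc2 (1.01 and 1.15), Tcf15 (0.35 in both) and Foxc1 (0.23 and 0.37), and lower for the other 7. Markers of migrating neural crest were higher for Meox1 (0.22 and 0.57) in both libraries, and for Foxc1 in KO only (0.16, −0.04 in WT). They were lowest for Uncx (−0.89) in WT and for Myf5 (−0.84) in KO.

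**Figure D5:**
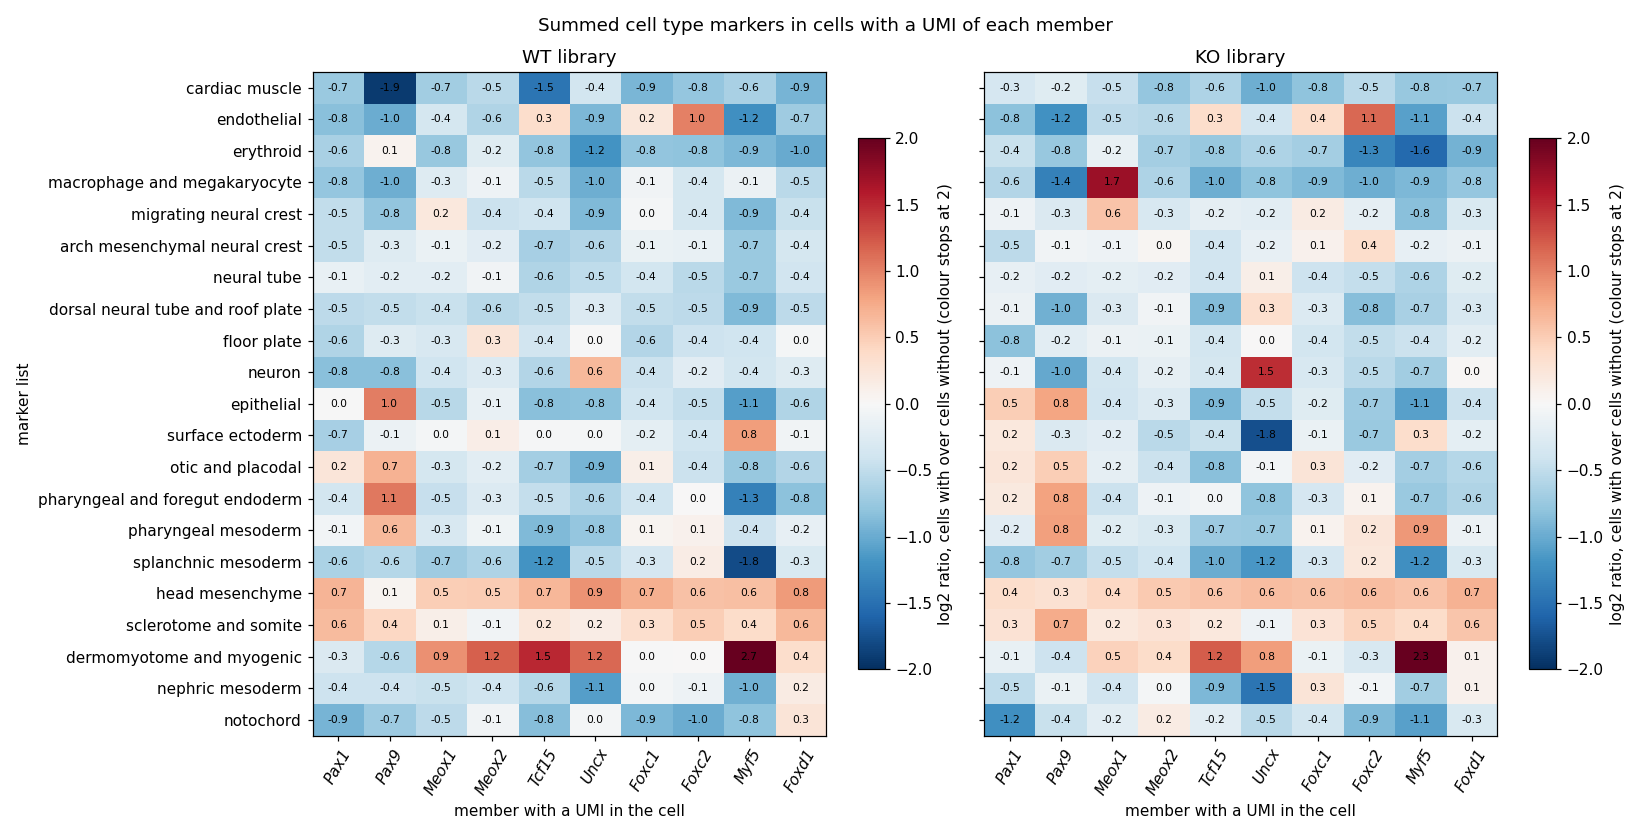
Log2 ratio of the summed CPM of each cell type marker list (rows) in cells with a UMI of each factor (columns) over cells without one, 10 CPM added to each side, for the WT and KO libraries. Dermomyotome and myogenic markers reach 2.73 in WT Myf5 cells, epithelial and pharyngeal endoderm markers are highest for Pax9, endothelial markers for Foxc2 and neuronal markers for Uncx.

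Other genes of the same tissues were followed through 3 lists. None of the 11 sclerotome genes tested was past 1.5-fold over all cells, with a median ratio of 0.02, where 2.75% of all genes were lower and 0.613% higher. Its ratios ran from −0.28 for Pdgfra (134 and 110 CPM) to 0.29 for Ebf2, a factor of mesenchyme (20.2 and 24.7 CPM). Sox9, the cartilage factor, was at −0.21 (263 and 226 CPM), and Cdh11, a cadherin of mesenchyme, at 0.21 (135 and 156 CPM). None of the 12 dermomyotome and myogenic genes tested was past it either, with a median of −0.11. The lowest of these were Myog (8.04 and 5.39 CPM, −0.58), Cdh15 (3.85 and 2.59 CPM, −0.57), and Dmrt2 (6.98 and 4.75 CPM, −0.55). Lbx1, a factor of migrating limb and tongue muscle precursors, had 41 UMIs in WT and 17 in KO and was under the minimum of 100. Of the segmentation and polarity genes, 8 of 14 could be tested and none was past 1.5-fold, with a median of −0.17. Lfng, a modulator of Notch in the segmentation clock, was lowest there (35.8 and 25.1 CPM, −0.51), followed by Tbx18 (30.8 and 22.4 CPM, −0.46). The clock and somite boundary genes Hes7, Mesp1, Mesp2, Ripply1, Ripply2 and Tbx6 had 2 to 23 UMIs in each library.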

How the data were processed

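Droplet libraries (10X 3′) of the cardiac neural crest region were made by the study from WT and KO embryos and read as 1 library per genotype. The study barcoded and pooled its samples, and cells were not assigned to embryos here. The authors obtained UMI counts with Cell Ranger 1.3.1 on mm10 (per the labels) and used Scanpy. The methods name a human reference, whereas the gene symbols are of mouse. Cells and genes at the low end, cells with very many UMIs, doublets marked by a caller, and mitochondrial and ribosomal UMIs were removed, and whether the doublets were taken out before deposit was not stated. The deposited values were square roots of counts scaled to 1641 UMIs per cell. UMIs were recovered by squaring each value and dividing by the smallest nonzero square of its cell: 100% of nonzero values came out whole within 0.01. No doublet caller was run here, and leaving out the deepest 5% of cells served as an alternative.

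A marker counted as present where its UMIs had a Poisson probability under 0.05 at the library-wide rate and the depth of the cell. Somite gates were counted ahead of head mesenchyme. This scoring rule was set after the data were seen. The 10 factors, the gene lists and the markers were chosen with earlier results of these data known, and support nothing independently. With 1 library per genotype, no test was made. Levels carry exact Poisson intervals, ratios exact conditional intervals and shares Clopper-Pearson intervals. Reads were counted per molecule, and all intervals cover counting error only. A count of 0 was read as allowing 3 counts. A seeded draw thinned each cell to 1000 UMIs, leaving out 1361 WT and 125 KO cells. Genes named were the 10 factors, genes of 3 lists, the 5 genes most like each factor (at least 10 UMIs in its cells in each library) and gate markers. Mylpf and the 8 genes used to sort epithelial from mesenchymal cells were singled out after values were seen. Nkx3-2, Myod1 and Msgn1 were not analysed here, and the result of a further list is not reported here. Coordinates are from GENCODE vM21 and promoter windows from RefSeq. Scripts used Python 3.11.15, numpy 2.4.6 and scipy 1.17.1 and were tested on simulated data. Alternatives were the scaling, the weight of cells, depth, the deepest cells, erythroid cells, the strictness of gates, the fold and the UMI minimum. Counting cells in place of UMIs, and gates extended by expression profile, were added after seeing the data.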

Additional observations from a re-analysis of the deposited data

How the results depend on the processing

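Of 151 values recomputed under alternatives, 131 moved by less than the counting interval or, for counts of genes, by less than 1.5-fold, and 20 moved by more, and no value of a factor past 1.5-fold changed sign. No paired analysis was possible because each genotype has 1 library. Over all cells, thinning to the same depth gave a ratio of −0.012 for Pax1. Counting cells with a UMI in place of UMIs gave −0.019 for Pax1, 0.22 for Meox1, −0.26 for Uncx, 0.29 for Foxc1, 0.25 for Foxc2, −0.41 for Myf5 and 0.047 for Foxd1, which turns the sign of Foxd1. Thinned to the same depth, Foxd1 kept its sign, at −0.21. Asking for 3 markers per cell left fewer cells. In the dermomyotome and myogenic gate it gave −1.23 for Tcf15, against 0.07, and −0.011 for Myf5. In head mesenchyme it gave −0.66 for Foxc1, −0.85 for Foxc2 and −0.66 for Foxd1. After thinning, Foxc2 in head mesenchyme was at 0.55, against −0.14. Uncx in the dermomyotome and myogenic gate then had 0 UMIs in KO, and −0.28 is an upper bound set by the floor of 3 UMIs, against −2.07. With gates extended by expression profile, Myf5 in head mesenchyme was at −0.52, against −2.04. For the other values the cause was not tested. Of the 10 factors, 1 in place of 2 was past 1.5-fold with the libraries scaled by the median of ratios, and 1 was past 2-fold, Myf5 in both cases. Over all genes these settings gave 235 and 59 lower genes in place of 323, and 103 and 15 higher in place of 72. The share of cells with 2 or more factors was 7.44% in WT and 6.34% in KO after thinning. The share of cells in the somite gates stayed lower in KO under all 4 alternatives (log2 −0.20 to −0.70, against −0.29), within its interval. Depth limits the gates: no gate held more than 17 UMIs of Pax9, Meox2 or Uncx in either library.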
